A study of Bos taurus with 8 samples.

Results

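LHCGR and FSHR encode the receptors of luteinizing hormone (LH) and follicle-stimulating hormone (FSH), and they were the 2 genes examined here among 18087 gene symbols with a measurement of their own. They were chosen by symbol. Each had 1 transcript cluster on the array, which is the set of probes that stands for a gene. RNA came from large luteal cells (LLC) and small luteal cells (SLC) of mature corpora lutea of lactating Holstein cows, with 4 biological replicates of each cell type and 1 array for each replicate. The cells were enriched on a Percoll gradient and sorted by FACS after Hoechst staining, and cows had been synchronized with the prostaglandin analog cloprostenol. The labels do not say whether LLC and SLC of the same number came from the same cow.

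LH and FSH are pituitary hormones that share one alpha subunit and differ in the beta subunit. Their receptors are G protein-coupled receptors with a large leucine-rich extracellular part. Both act mainly through the stimulatory G protein Gs, adenylyl cyclase, cyclic AMP (cAMP) and protein kinase A. LH maintains progesterone synthesis in the corpus luteum. In the follicle, theca cells carry the LH receptor, granulosa cells acquire it late, and the FSH receptor is a marker of granulosa cells. In ruminants, small luteal cells are known to answer LH with more progesterone, whereas large luteal cells secrete much of it without LH.

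LHCGR was above the background limit, defined further on, on every array of both cell types, and 3 of 4 LLC arrays lay below all SLC arrays. The unit is the log2 signal, on which a difference of 1 is a 2-fold change, and signals of different genes share no scale. LHCGR was 7.33, 7.55, 8.39 and 9.38 in LLC replicates 1 to 4, against 9.60, 9.08, 9.51 and 9.14 in SLC replicates 1 to 4. The exception was LLC replicate 4, which lay among the SLC arrays.

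The mean signal of LHCGR was 8.16 ± 0.93 in LLC and 9.33 ± 0.26 in SLC (SD, n = 4 each). This is a log2 difference of -1.17 (LLC minus SLC, SE 0.39, 95% confidence interval -2.03 to -0.31), or 2.25-fold higher in SLC (1.24 to 4.08). The SE and interval are moderated by limma, which draws the variance of a gene toward that of all clusters. Without moderation the SE was 0.48, so that interval is wider. The difference did not pass the test at an adjusted p under 0.05 (limma, Benjamini-Hochberg adjusted p = 0.0593 over 24415 clusters), which 19.8% of all clusters passed. The exact permutation test of the 2 means gave p = 0.0857 (two-sided, 70 arrangements), where 0.0286 is the smallest p that 4 against 4 arrays allow. LHCGR was therefore not a differentially expressed gene (DEG) under the filter of a fold above 2 with p and adjusted p under 0.05, although its fold was above 2. Of all clusters 5.46% were DEGs (2.39% up in LLC, 3.07% up in SLC), and 11.3% had every SLC array above every LLC array.

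The call was borderline, and it changed with 1 array and with other choices. With all 8 arrays the difference passed with array weights (adjusted p = 0.0256), and, where fewer features were tested, with dim clusters filtered out (adjusted p = 0.0407) or the clusters of each symbol averaged (adjusted p = 0.0479). Without LLC replicate 4 the LLC mean was 7.76 ± 0.56 (SD, n = 3), and the difference was -1.58 (SE 0.25, limma adjusted p = 0.00211), or 2.98-fold higher in SLC. In the other 15 of 19 alternatives the difference did not pass. Among these the limma adjusted p was 0.0515 with array medians subtracted and 0.0801 after quantile normalization. Leaving out any 1 array other than LLC replicate 4 gave a limma adjusted p of 0.0883 to 0.149. Without moderation the adjusted p was 0.180. Measured against the SLC mean, LHCGR was 4.01-fold lower in LLC replicate 1, 3.44-fold lower in replicate 2 and 1.92-fold lower in replicate 3. In LLC replicate 4 it lay 0.05 above the SLC mean on the log2 scale. The SD of LHCGR among LLC arrays was at percentile 99.3 of the SDs of all clusters, and among SLC arrays at percentile 82.2.

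**Figure D1:**
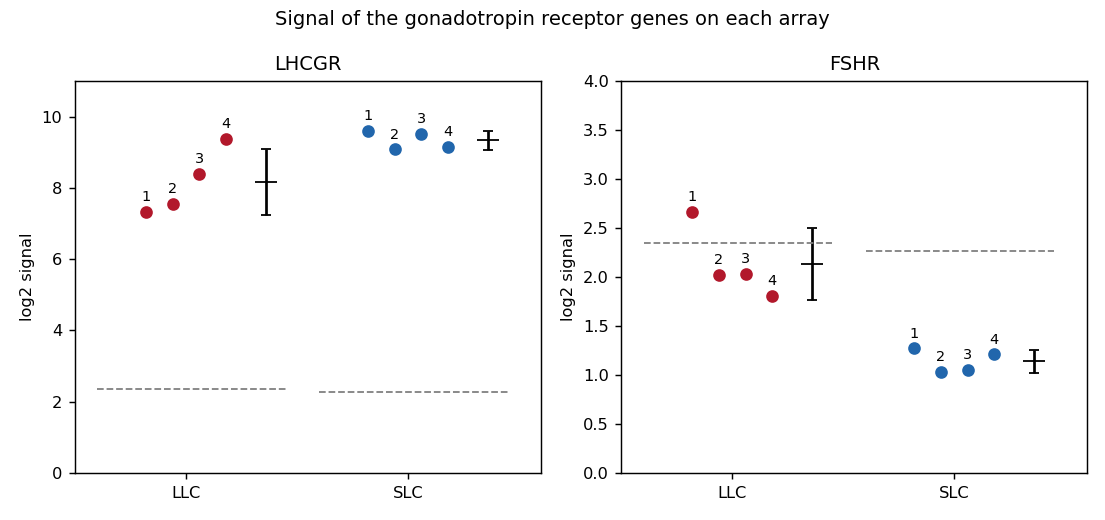
The log2 signal of LHCGR (left) and FSHR (right) on each array, as points numbered by replicate, with the mean and SD beside them for LLC (left of each panel) and SLC (right). Dashed lines are the background limit of each cell type (2.35 in LLC, 2.27 in SLC). LLC replicate 4 lay among the SLC arrays for LHCGR, whereas all LLC arrays lay above all SLC arrays for FSHR.

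LLC replicate 4 also stood nearer to SLC over the whole array. Its Pearson's r with SLC arrays was 0.972 to 0.977 across clusters, against 0.949 to 0.968 for the other LLC arrays. Clusters are not independent replicates. The 11 granulosa lineage genes had a mean signal of 5.26 on LLC replicate 4, with 5.60 to 5.67 on LLC replicates 1 to 3, against 4.07 to 4.47 on SLC arrays. The 8 theca lineage genes had 4.55 there, with 4.19 to 4.39 on LLC replicates 1 to 3, against 5.25 to 5.33 on SLC arrays. Not all theca genes shared this order. CYP17A1, level between the cell types, was 2.63, 3.01, 4.74 and 4.59 in LLC replicates 1 to 4. INSL3 was nearest to SLC on LLC replicate 3 (6.83, with 5.83 on LLC replicate 4). PDGFRA and PDGFRB were nearest on LLC replicate 2 (5.22 and 5.30, with 4.00 and 4.98 on LLC replicate 4). NR2F2 was nearest on LLC replicate 4 (7.91). The mean of the lymphatic endothelial markers was 7.06 on LLC replicate 4 and at most 5.56 on LLC replicates 1 to 3, against 6.35 to 7.54 on SLC arrays. For these 3 lists LLC replicate 4 was the LLC array nearest to SLC, within the SLC range only for the lymphatic markers. For other markers it was not. LLC replicate 2 was nearest to SLC for endothelial (6.09, with 6.04 on LLC replicate 4), fibroblast (9.57, with 9.11) and pericyte markers (5.36, with 4.95). Macrophage markers were at 3.49 on LLC replicate 4, farther from SLC than on LLC replicates 1 (4.04) and 2 (3.76). The part of these differences in the LHCGR result was not tested.

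FSHR was near the background of the array in both cell types. The signal was 2.66, 2.02, 2.03 and 1.81 in LLC replicates 1 to 4, against 1.27, 1.03, 1.05 and 1.21 in SLC replicates 1 to 4. All 4 LLC arrays lay above all SLC arrays. As a background limit served the 95th percentile of 711 olfactory receptor genes, which was 2.35 in LLC and 2.27 in SLC. Only LLC replicate 1 was above this limit for FSHR. The cell type means of FSHR stood at percentile 93.4 of the olfactory receptor genes in LLC and 69.3 in SLC.

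The mean signal of FSHR was 2.13 ± 0.37 in LLC and 1.14 ± 0.12 in SLC (SD, n = 4 each). This log2 difference of 0.99 passed the test (SE 0.17, 95% confidence interval 0.61 to 1.37, limma adjusted p = 0.00334), while the fold filter was not reached. No fold is given, because both means were below the limit, where log2 signals understate a change. Over all clusters, 9.64% passed the test higher in LLC, and in 11.2% all LLC arrays lay above all SLC arrays. The exact permutation test gave p = 0.0286 (two-sided), the smallest it can give. Among the olfactory receptor genes, 3 of 711 passed higher in LLC, and 95% of their differences lay between -0.231 and 0.345. With signals raised to the limit, the difference was 0.08 (adjusted p = 0.701), since the SLC arrays and 3 of the LLC arrays were then at the same value.

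**Figure D2:**
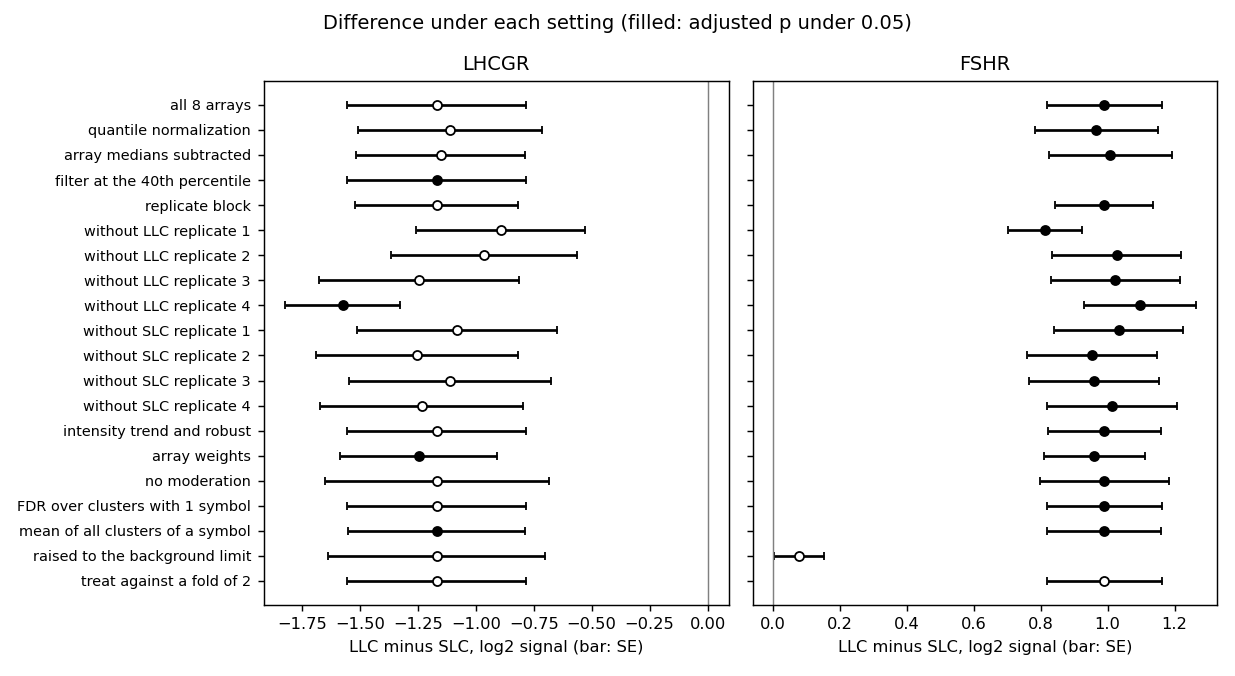
The log2 difference LLC minus SLC of LHCGR (left) and FSHR (right) with its SE, for the fit on all 8 arrays and each alternative, filled where the adjusted p was under 0.05. LHCGR stayed between -1.58 and -0.89, and FSHR between 0.81 and 1.10 except where signals were raised to the background limit (0.08). FSHR has no value after the filter on dim clusters.

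The hormone genes and most relatives of the receptors were at background. CGA, which encodes the common alpha subunit, averaged 1.30 in LLC and 1.06 in SLC. LHB, for the beta subunit of LH, averaged 2.27 in LLC and 2.17 in SLC, and FSHB, for that of FSH, 1.13 in LLC and 1.14 in SLC. Of the 6 glycoprotein hormone subunit genes, 4 were below the limit in both cell types, and none passed the test by limma at an adjusted or an unadjusted p under 0.05 (which 30.8% of all clusters had), or without moderation. The largest difference besides that of CGA was that of GPHA2, for the alpha subunit of thyrostimulin, at 3.63 in LLC and 3.83 in SLC. TSHR, the thyrotropin receptor and closest relative of the pair, was at 1.11 ± 0.23 in LLC and 1.09 ± 0.13 in SLC (SD, n = 4 each). LGR4, the receptor of R-spondins, passed the test. Its signal was 8.24, 8.69, 7.98 and 7.49 in LLC replicates 1 to 4, against 6.84, 6.99, 6.88 and 7.12 in SLC. It differed by 1.14 (SE 0.22, limma adjusted p = 0.00530). LGR4 alone of the 6 relatives passed (2 did without LLC replicate 2), and 4 of them were below the limit in both cell types.

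On the chromosome, LHCGR and FSHR are neighbours, and the genes beside them did not pass the test. In the annotation of ARS-UCD2.0 they lie on chromosome 11 with a long noncoding RNA between them. STON1, GTF2A1L and PPP1R21 lie on the LHCGR side. The genes beyond FSHR were not analysed here. PPP1R21 was at 4.54 ± 0.22 in LLC and 4.19 ± 0.12 in SLC (SD, n = 4 each, limma adjusted p = 0.0824), and STON1 at 4.98 ± 0.44 in LLC and 4.72 ± 0.07 in SLC (adjusted p = 0.414). Without LLC replicate 4 both passed the test, higher in LLC (adjusted p = 0.0395 and 0.0461). GTF2A1L, a testis-type transcription factor subunit, was at background, with 1.54 in LLC and 1.25 in SLC. FOXN2, the next gene on that side, was at 4.73 in LLC and 4.90 in SLC (adjusted p = 0.366).

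Genes that couple the receptors to cAMP included several that were higher in SLC. In the list of Gs, adenylyl cyclase and protein kinase A, 1 of 26 measured genes passed higher in LLC and 8 passed higher in SLC, where 9.64% and 10.2% of all clusters did. Of the 26 genes, 21 were above the background limit in at least 1 cell type. After the filter on dim clusters, 33.6% of clusters passed in either direction, against 19.8% of all. In the list, 6 genes passed in either direction without moderation. The SLC count of the list was 5 without LLC replicate 2 or SLC replicate 2. The median difference was -0.24, against 0.015 over all clusters. GNAS, for the alpha subunit of Gs, was at 10.10 ± 0.16 in LLC and 10.55 ± 0.03 in SLC (SD, n = 4 each, limma adjusted p = 0.0143). This call was lost after quantile normalization (adjusted p = 0.0673). ADCY3, an adenylyl cyclase, was 5.13, 5.53, 6.06 and 6.43 in LLC replicates 1 to 4, against 7.27, 7.37, 7.68 and 7.38 in SLC. It was 3.11-fold higher in SLC (difference -1.64, SE 0.25, adjusted p = 0.00167). PRKACB and PRKAR2A, a catalytic and a regulatory subunit of protein kinase A, were 1.72-fold and 1.80-fold higher in SLC. CREM, a transcription factor of the cAMP response, was 1.80-fold higher in LLC.

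Among 11 genes of other G proteins and phospholipase C, 1 passed higher in LLC and 2 passed higher in SLC, where 9.64% and 10.2% of all clusters did. The LLC count was 2 without LLC replicate 4. GNAI2, of the inhibitory Gi, was 1.52-fold higher in SLC (adjusted p = 0.00179), and the phospholipase gene PLCB4 was 1.81-fold higher in LLC (adjusted p = 0.00795). GNA12 (-0.45, adjusted p = 0.0463) lost its call in 10 of 15 alternative settings, among them the fits without any 1 array other than LLC replicate 4 (adjusted p up to 0.111).

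The genes that switch receptors off and those that break cAMP down were counted apart, beside the 9.64% of all clusters higher in LLC and 10.2% higher in SLC. For desensitisation and trafficking, 1 of 12 genes passed higher in LLC and 4 passed higher in SLC, and the median was -0.18. Without LLC replicate 4 the LLC count was 2. The beta-arrestin genes ARRB1 and ARRB2, whose proteins uncouple active receptors, were 1.86-fold and 1.98-fold higher in SLC. CYTH2, an exchange factor of ARF proteins, was 1.49-fold and the receptor kinase gene GRK5 1.46-fold higher in SLC. The gene higher in LLC was GRK2, another receptor kinase, at 5.80 in LLC and 5.22 in SLC. Of 15 cAMP phosphodiesterases, 2 were higher in SLC, a share near that of all clusters, and the median was -0.38. That count was 5 without LLC replicate 4, 1 without LLC replicate 1 or 2 or SLC replicate 1 or 3, and 0 without moderation. The PDE3B difference was -1.11, 2.16-fold higher in SLC (adjusted p = 0.00898), a call lost without moderation (adjusted p = 0.0556). PDE8B, of a phosphodiesterase with high affinity for cAMP, was 4.38, 4.41, 4.97 and 5.71 in LLC replicates 1 to 4, against 6.64, 5.58, 6.37 and 5.57 in SLC. LLC replicate 4 thus lay above SLC replicates 2 and 4. The PDE8B difference was -1.17 (SE 0.33, adjusted p = 0.0329), a call lost in 7 settings, among them the fits without LLC replicate 1, 2 or 3 or without SLC replicate 1 or 3, where the adjusted p was 0.0618 to 0.0906.

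Regulators of the receptor genes were split. In LLC 4 of 18 passed as higher, in SLC 5, where 9.64% and 10.2% of all clusters did. The median was -0.30. NR5A2, a nuclear receptor of granulosa and luteal cells, differed by 4.70 and FOXL2, a granulosa transcription factor, by 1.70. HDAC1 and DNMT1, which modify histones and DNA, differed by 1.08 and -0.74. SP1 (-0.615, limma adjusted p = 0.00377) and SIN3A (-0.57, adjusted p = 0.04998, just under the threshold) were also higher in SLC. Among the orphan nuclear receptors that repress the LHCGR promoter in human cells, NR2F1 and NR2F6 went opposite ways. NR2F2, also in this list, was 2.03-fold higher in SLC (limma adjusted p = 0.00740). NR2F1 was at 5.23 in LLC and 6.54 in SLC (difference -1.31, adjusted p = 0.00838), and NR2F6 at 5.72 in LLC and 4.99 in SLC (adjusted p = 0.0149). NR5A1, the steroidogenic factor, was at 5.88 in LLC and 6.42 in SLC (adjusted p = 0.169). MVK, whose protein binds LHCGR mRNA in the rat, was at 6.51 in LLC and 6.75 in SLC (adjusted p = 0.370).

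**Figure D3:**
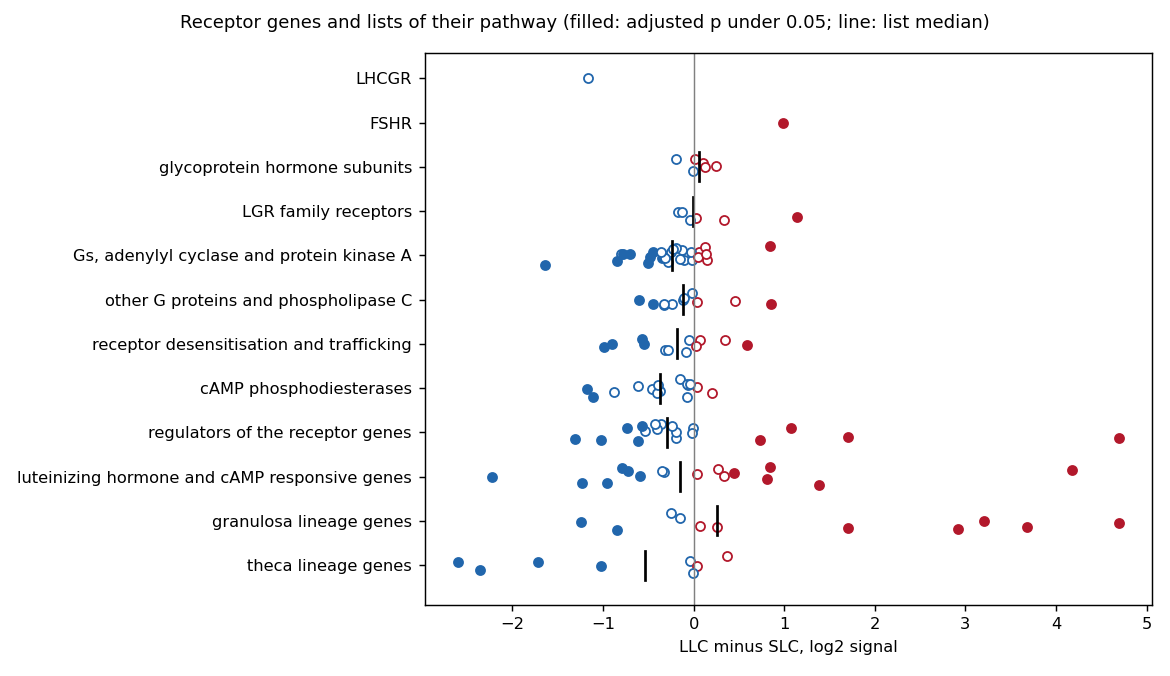
The log2 difference LLC minus SLC of LHCGR, FSHR and each measured gene of 10 lists, red where higher in LLC and blue where higher in SLC, filled where the adjusted p was under 0.05. A vertical line marks the median of a list, which was -0.38 for the cAMP phosphodiesterases and 0.26 for the granulosa lineage genes.

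Genes known to answer LH or cAMP did not share a direction. In LLC 5 of 16 passed as higher, in SLC 6, where 9.64% and 10.2% of all clusters did. The median was -0.15. CYP11A1, which makes pregnenolone, averaged 11.38 ± 0.09 in LLC and 10.93 ± 0.06 in SLC (SD, n = 4 each, limma adjusted p = 0.00774). HSD3B1, which makes progesterone, averaged 11.62 ± 0.05 in LLC and 11.36 ± 0.06 in SLC. HSD3B1 did not pass the test (adjusted p = 0.0598). FDX1, an electron donor of CYP11A1, was 1.75-fold and the growth factor gene EREG 18.2-fold higher in LLC. The nuclear receptor genes NR4A2 and NR4A3 were 2.35-fold and 1.95-fold higher in SLC. The largest difference on the SLC side of this list was that of PTGS2, 4.68-fold (limma adjusted p = 0.00245).

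Of the lineage genes that passed, most granulosa genes were higher in LLC, and the theca genes were higher in SLC. Among 11 granulosa genes, 5 passed higher in LLC and 2 passed higher in SLC, where 9.64% and 10.2% of all clusters did. The median was 0.26. The aromatase gene CYP19A1, a target of FSH in granulosa cells, was 9.25-fold higher in LLC. The follistatin gene FST was 7.58-fold and the oxytocin gene OXT 12.8-fold higher in LLC. The 2 granulosa genes higher in SLC were INHA (2.36-fold) and GATM (1.80-fold). Among 8 theca genes, 4 passed higher in SLC and none in LLC (1 without LLC replicate 4), and the median was -0.53. INSL3, a hormone gene of theca cells, was 6.08-fold higher in SLC. PDGFRA (5.12-fold), PDGFRB (3.28-fold) and NR2F2 (2.03-fold) were higher in SLC too, and the PDGF receptor genes are also expressed in fibroblasts and pericytes. PTCH1 went the other way, with all 4 LLC arrays above all SLC arrays, but did not pass (difference 0.37, limma adjusted p = 0.0615). CYP17A1 was level, at 3.74 in LLC and 3.79 in SLC.

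Fibroblast, macrophage and most endothelial markers passed higher in SLC, and 2 of 3 luteal steroidogenic markers passed higher in LLC. The other marker lists had few or no calls. Over all clusters, 10.2% passed higher in SLC and 9.64% higher in LLC. All 5 fibroblast markers were higher in SLC, with a mean signal of 8.41 to 9.57 in LLC arrays and 10.5 to 10.8 in SLC arrays. All 7 macrophage markers were higher in SLC (3.43 to 4.04 in LLC arrays, 5.82 to 6.19 in SLC arrays), as were 6 of 8 endothelial markers (4.64 to 6.09 in LLC, 6.55 to 7.24 in SLC). For pericytes it was 2 of 6 (4.27 to 5.36 in LLC, 5.62 to 6.48 in SLC) and for lymphatic endothelium 1 of 5 (5.19 to 7.06 in LLC, 6.35 to 7.54 in SLC), where PDPN differed by 0.27 without passing. The lymphocyte and erythrocyte markers were below the limit in both cell types for 4 of 5 and 3 of 3 genes. The luteal steroidogenic markers were at 11.3 to 11.35 in LLC and 10.7 to 10.9 in SLC arrays. The part of the other cells' RNA in the LHCGR difference was not tested. Fewer cells of a type and less RNA per cell cannot be told apart in such samples.

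The genes whose pattern over the arrays was nearest to that of LHCGR were picked for it and are a description. Pearson's r was taken over the 8 arrays, for 3748 genes above the background limit in both cell types with a range of at least 1 on the log2 scale. An r of at least 0.9 was found for 154 of them (4.11%), with a median of 0.35 over all. The arrays share their cell types, so r holds the cell type difference as well. The 5 highest were TGFBR3, a coreceptor of TGF-beta and inhibin (r = 0.991), the protease gene BMP1 (0.991), LOC327709 (0.990), DCTPP1 (0.987) and the glutathione transferase gene GSTM2 (0.986). BMP1 was 7.10, 7.34, 8.06 and 8.88 in LLC replicates 1 to 4, against 9.22, 8.94, 9.22 and 8.99 in SLC. TGFBR3 was 7.18, 7.38, 7.70 and 8.40 in LLC, against 8.42, 8.18, 8.49 and 8.12 in SLC. As for LHCGR, LLC replicate 4 was the highest LLC array in both.

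The lowest r were those of KCTD8 (-0.988), GAL3ST1, of a sulfotransferase (-0.981), the kinase gene CDKL4 (-0.974), TBC1D1 (-0.971) and SCRN1 (-0.970). KCTD8 was 3.94, 3.77, 3.48 and 2.89 in LLC, against 2.58, 2.93, 2.74 and 3.00 in SLC. LLC replicate 4 was the lowest LLC array and lay within the SLC range.

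With the cell type means removed, r measured the deviations within the cell types alone. The 5 highest were BMP1 (0.995), the transcription factor gene NFIX (0.994), the cadherin gene CDH11 (0.985), TGFBR3 (0.985) and LOC327709 (0.980). The 5 lowest were KCTD8 (-0.981), CDKL4 (-0.977), the histone gene H2AC6 (-0.972), UVRAG (-0.967) and SCRN1 (-0.967). NFIX was 4.51, 4.59, 5.19 and 5.94 in LLC, against 6.78, 6.42, 6.84 and 6.57 in SLC. Unlike LHCGR, it lay below all SLC arrays on every LLC array (difference -1.60, limma adjusted p = 0.00361). Of the pathway genes, r over the 8 arrays was 0.949 for PDE8B, 0.923 for NR2F1 and 0.905 for ADCY3, and -0.921 for LGR4.

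**Figure D4:**
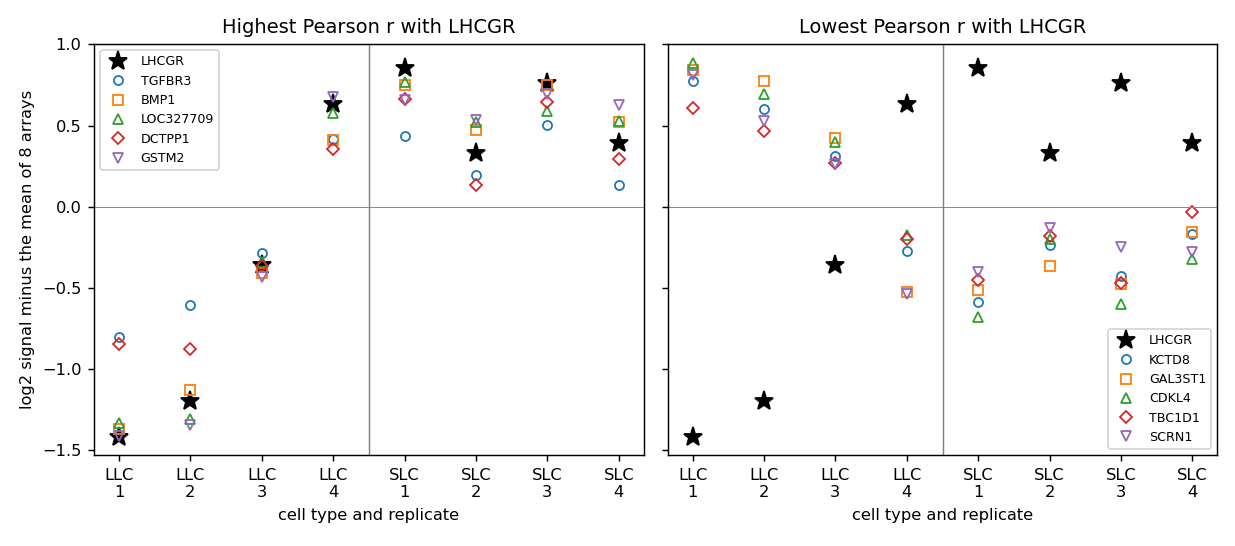
Log2 signal minus the mean of the 8 arrays for LHCGR (stars) and the genes of highest (left) and lowest (right) Pearson's r with it, by cell type and replicate. The genes were chosen for this likeness. On LLC replicate 4, LHCGR and the 5 genes of highest r lay within the SLC range, except BMP1, which lay just below it.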

How the data were processed

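RNA of 4 LLC and 4 SLC samples was hybridised to Affymetrix Bovine Gene 1.0 ST arrays, 1 for each sample. The deposited table holds RMA values on the log2 scale. Per the methods, the authors ran Transcriptome Analysis Console 4.0, and no RMA version is given in the sources used here. RMA subtracts background, makes the arrays alike in distribution and reduces a cluster's probes to a single value, and it compresses differences of dim genes. Values were used as deposited.

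Symbols came from the platform annotation, and 18550 of 24415 clusters had exactly 1. For a symbol with several such clusters, the one of highest mean over the 8 arrays was used. GNAS and PDE8B had 2 clusters each, and the other one is not reported here. STAR, the cholesterol carrier gene, was not analysed here. LLC were compared with SLC with limma 3.58.1 (lmFit, then eBayes, R 4.3.3), 8 arrays together, with Benjamini-Hochberg adjustment over 24415 clusters. "Higher" means an adjusted p under 0.05. On simulated data for this comparison over 24415 clusters, 43 of 50 clusters changed 2-fold and 48 of 50 changed 4-fold were called. The simulated noise of both cell types was drawn from the SD of each cluster among SLC arrays. LHCGR varied more among LLC arrays (SD 0.93) than among SLC arrays (SD 0.26), so these shares do not carry over to it.

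Named genes were LHCGR, FSHR, their neighbours, CGA, LHB, FSHB, TSHR, GNAS, CYP11A1, HSD3B1, up to 4 genes past the test of each of 10 lists by moderated t (2 by difference where none passed), and the 5 highest and lowest r with LHCGR. GRK2, SP1, SIN3A, NR2F1, NR2F6, NR5A1, MVK, PTGS2, INHA, GATM, PDPN, PTCH1 and CYP17A1 were added after their values were seen. The genes, lists and rules were chosen with earlier results of these data known. Alternatives were other normalizations, filters, variance estimates, adjustment families, a replicate block and leaving out each array. The number of arrays limits the precision, and the labels call the samples biological replicates without saying which cow each came from.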

Additional observations from a re-analysis of the deposited data

Results flagged for a closer look

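For the 57 named genes, 114 groups of 4 arrays were examined for an array that stands apart, and 4 held one, where chance flags about 1 in 20. Neither LHCGR nor FSHR was among them. LLC replicate 4 had 4.91 for CYP19A1, below the 5.91 to 6.11 of LLC replicates 1 to 3. LLC replicate 3 had 4.14 for NR4A2, below the 4.89 to 4.93 of its group. LLC replicate 1 had 4.61 for ARRB1, above the 4.46 to 4.48 of its group. SLC replicate 4 had 1.41 for FSHB, above the 1.02 to 1.08 of its group, all under the background limit.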

How the results depend on the processing

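The LHCGR difference stayed negative in all 19 alternatives, and 4 of them passed the test by limma. They were the filter on dim clusters at the 40th percentile (-1.17, adjusted p = 0.0407) and averaging the clusters of each symbol (-1.17, adjusted p = 0.0479), in both of which fewer features were tested, array weights (-1.25, adjusted p = 0.0256), and the fit without LLC replicate 4 (-1.58). Leaving out each array in turn gave -1.58 to -0.89 for LHCGR and 0.81 to 1.10 for FSHR. The FSHR difference passed in 16 of 18 alternatives. The exceptions were signals raised to the background limit (0.0775, adjusted p = 0.701) and the test against a fold of 2 (0.99, adjusted p = 1). The filter on dim clusters removed FSHR. Of 126 list genes, 16 passed higher in LLC and 32 passed higher in SLC, where 9.64% and 10.2% of all clusters did. After the filter on dim clusters, 33.6% of clusters passed in either direction, against 19.8% of all. With a fold over 2 as well the list counts were 9 and 11, by construction, and without 1 array 16 to 21 and 26 to 38. At background, FSHB changed sign with array medians subtracted (0.0125) and ranged over -0.0808 to 0.0858 without 1 array, and the TSHR difference changed sign after quantile normalization (-0.0166) and ranged over -0.0842 to 0.0992. Of 820 values for the other 55 named genes, 63 lost and 15 gained a call, and 36 genes changed in none. GSTM2 lost its call in 10 settings, DCTPP1, LOC327709 and KCTD8 in 9 each and BMP1 in 6. Deviations from the cell type means correlated by -0.13, -0.07, 0.17 and 0.01 between LLC and SLC of numbers 1 to 4. With so few arrays, these values cannot tell whether samples of the same number share a cow. With the replicate block LHCGR differed by -1.17 (adjusted p = 0.0617) and FSHR by 0.99 (adjusted p = 0.00491), and PDE8B, GNA12 and KCTD8 lost their calls. Signal over background limits FSHR, TSHR and most hormone genes.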

Other observations

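CYP17A1, the androgen-forming enzyme gene of theca cells, was 2.63, 3.01, 4.74 and 4.59 in LLC replicates 1 to 4, against 3.88, 3.76, 3.87 and 3.64 in SLC. LLC replicates 3 and 4 lay above all SLC arrays and LLC replicates 1 and 2 below them, and the means did not differ by the test (3.74 in LLC, 3.79 in SLC, limma adjusted p = 0.965). Over the deviations from the cell type means its r with LHCGR was 0.861, as a description of 8 arrays.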
